A study of Homo sapiens with 6 samples.

Results

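The genes described here encode the machinery that cuts and finishes the 3′ ends of RNA polymerase II transcripts: subunits of the Integrator complex, the cleavage and polyadenylation factors, the factors that cut histone mRNAs, and the exonuclease XRN2. They were chosen by name as a list of 35 symbols, and all 35 were found by Ensembl ID among the 35716 genes of the count table. RNA was measured by poly(A)-selected sequencing in MIA PaCa-2, an established human line of pancreatic ductal adenocarcinoma labelled wild type. Triptolide, a plant diterpenoid that binds the XPB subunit of TFIIH, was given at 10 nM for 24 h in 3 libraries, against 3 libraries of untreated cells for which no vehicle is named. All 6 libraries come from the same line.

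Integrator is a large complex that binds paused RNA polymerase II. Its endonuclease INTS11 cuts the nascent RNA, which ends small nuclear RNAs and enhancer RNAs and stops many short transcripts of protein-coding genes, while a phosphatase bound to the complex removes phosphates from the polymerase. Messenger RNAs are cut by a related endonuclease, CPSF3, inside the cleavage and polyadenylation specificity factor (CPSF), and a poly(A) tail is added. Replication-dependent histone mRNAs are cut by the same enzyme with the help of the stem-loop binding protein and the U7 snRNP, and stay without a tail. XRN2 then degrades the RNA left on the polymerase, a step known as torpedo termination.

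In cells with triptolide, 3 of the 35 genes fell and 0 rose by edgeR's quasi-likelihood test at an adjusted p under 0.05, all 3 of them Integrator subunits. INTS3 (ENSG00000143624), a subunit that also serves in a single-stranded DNA-binding complex called SOSS, was 1.64-fold lower. INTS14 (ENSG00000138614), a subunit of the tail module, was 1.51-fold lower, and INTS8 (ENSG00000164941), which helps to hold the phosphatase, was 1.55-fold lower. Over all 15202 genes tested, 5.82% fell and 10.0% rose, and among the 10288 tested genes whose mean CPM was 5 or more, as it was for all 35, 6.68% fell and 5.52% rose. The 8.57% of the list that fell is close to that background. At an unadjusted p under 0.05, 8 of the 35 were lower and 2 higher, against 1667 lower and 1108 higher of the 10288 genes. Over all 15202 genes, 2094 were lower and 2596 higher at that threshold. DESeq2 called 1 of the 35 higher, INTS1, and 5 lower, against 1505 higher and 1123 lower of the 15202. With limma-voom, 0 of the 35 were higher and 3 lower, against 1483 higher and 899 lower of the 15202. None of the 22 genes outside Integrator was called by edgeR, where 3 were lower (CPSF2, WDR33 and CPSF7) and 1 was higher (CPSF1) at an unadjusted p under 0.05.

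Levels in CPM (counts scaled to library size, with library sizes adjusted by the trimmed mean of M-values, TMM) showed small differences for most of the list. Such values are shares of a library, and a change common to all genes would not show in them. The absolute log2 fold change was under 0.5 for 31 of the 35 genes, or 88.6%, and for 79.8% of those 10288 genes. The median log2 fold change of the 35 was -0.17, against -0.08 for the 10288 genes and -0.004 for all tested genes. Of the 35, 26 were below 0 and 9 above, against 5990 below and 4297 above of the 10288 genes. When libraries were instead scaled on their ribosomal protein genes, the median of all tested genes was 0.17 and that of the 35 was 0.01. Of the 35, 17 were then below 0 and 18 above. Scaling moves all genes by about the same amount, so the distance between these medians was bound to stay near 0.17. It was 0.09 in the fit with a minimum mean CPM of 5. The groups did not overlap in 9 genes that were lower and 1 that was higher, while 16.9% of all tested genes were lower and 19.8% higher in that way, and 20.1% and 13.7% of the 10288. Summed over the 35 genes, the level was 3170, 2846 and 2867 CPM in triptolide libraries and 3118, 3068 and 3078 CPM in untreated libraries, and these sums overlapped.

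**Figure D1:**
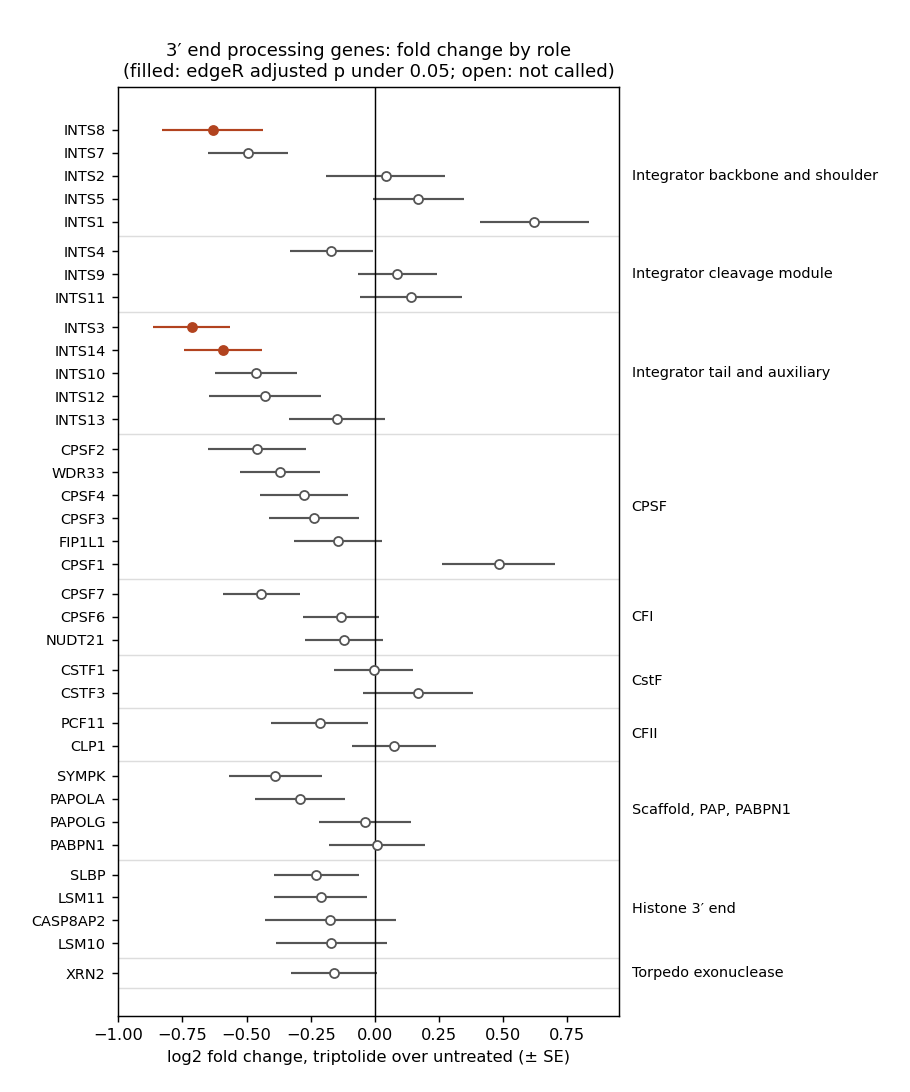
Log2 fold change of each of the 35 genes, triptolide over untreated, with its standard error (x axis), grouped by role (y axis). Filled points are the 3 genes past an edgeR adjusted p of 0.05, INTS3, INTS14 and INTS8, and all lie left of 0, while INTS1 and CPSF1 lie farthest to the right.

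The promoters of the Integrator genes at both ends of this range are shown for what they share and where they differ. INTS3 and INTS14 fell, and INTS1 had the highest log2 fold change of the list. Each run is the 250 bases before the gene's start in RefSeq, build GRCh38.p14, written 5′ to 3′ on the gene's strand. Capitals mark exact matches on either strand to any of 4 motifs. The GC box was searched as GGGCGG. The CCAAT box was searched as CCAATC. The ETS core, bound by ETS family factors, was searched as CGGAAG. The TATA box was searched as TATAAA.
INTS3, chr1:153727800-153728049, plus strand: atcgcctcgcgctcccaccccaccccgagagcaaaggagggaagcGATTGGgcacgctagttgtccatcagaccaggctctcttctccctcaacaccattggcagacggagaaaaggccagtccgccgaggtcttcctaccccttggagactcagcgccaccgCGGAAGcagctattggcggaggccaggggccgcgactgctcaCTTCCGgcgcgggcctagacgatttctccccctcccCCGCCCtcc
INTS14, chr15:65611132-65611381, minus strand: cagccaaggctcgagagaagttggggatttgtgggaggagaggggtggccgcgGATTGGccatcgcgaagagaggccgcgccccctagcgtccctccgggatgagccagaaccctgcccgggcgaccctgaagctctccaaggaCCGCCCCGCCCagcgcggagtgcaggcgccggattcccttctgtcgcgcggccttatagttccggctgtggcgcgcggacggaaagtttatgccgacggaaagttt
INTS1, chr7:1504390-1504639, minus strand: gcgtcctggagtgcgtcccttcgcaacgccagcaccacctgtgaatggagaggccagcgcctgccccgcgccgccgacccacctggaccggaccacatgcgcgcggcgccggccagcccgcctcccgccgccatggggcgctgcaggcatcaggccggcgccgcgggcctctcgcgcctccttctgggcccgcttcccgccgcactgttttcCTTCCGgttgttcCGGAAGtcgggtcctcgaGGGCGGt

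INTS3 and INTS14 each held a CCAAT box, INTS3 with 1 GC box match and 2 ETS cores and INTS14 with 2 GC box matches, which overlap each other, and no ETS core. INTS1 held 2 ETS cores and 1 GC box match and no CCAAT box. None of these promoters held the TATA box letters. INTS11, which was not called, held 2 CCAAT boxes. RefSeq promoters of 30 of the 35 genes were searched, and those of INTS8, INTS5, INTS9, INTS10 and CPSF1 were not analysed here. Among these, 22 held a GC box (73.3%), 14 an ETS core (46.7%), 9 a CCAAT box (30.0%) and 0 a TATA box. In 15842 protein-coding genes the shares were 62.1%, 25.7%, 20.6% and 11.9%. These are matches of letters in a fixed window and were not tied to binding of any factor.

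In the backbone and shoulder of Integrator, which hold the complex together, 1 of 5 genes fell, against 6.68% of the 10288 genes. INTS8 had 18.4, 31.0 and 25.9 CPM in triptolide libraries, against 39.0, 39.2 and 38.7 CPM in untreated libraries. All 3 triptolide libraries were below all untreated ones, and triptolide replicate 1 was the lowest. Its log2 fold change was -0.63 ± 0.20 (SE), and its adjusted p by edgeR was 0.0478. The call did not hold without triptolide replicates 1 or 3 (adjusted p = 0.0587 and 0.113) or without untreated replicates 1, 2 or 3 (0.104, 0.128 and 0.0836). It was also lost with library totals (0.0996), ribosomal protein gene scaling (0.429) and a minimum mean CPM of 5 (0.11). Of the annotated exon length of INTS8, 20.7% overlaps CCNE2 on the opposite strand, and CCNE2 itself had 8.68 ± 2.24 CPM with triptolide and 7.10 ± 1.13 CPM untreated (SD, n = 3 each). As the strand setting is not given, reads of INTS8 and CCNE2 cannot be told apart there.

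INTS7 had 28.7, 32.5 and 33.0 CPM with triptolide, against 45.0, 45.1 and 42.6 CPM untreated. The groups did not overlap and the log2 fold change was -0.49 ± 0.16 (SE). The adjusted p was 0.0513, just above the threshold for a call. With RLE size factors it was 0.0499.

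INTS1, the largest backbone subunit, lay on the other side. It had 600, 322 and 396 CPM in triptolide libraries and 303, 275 and 279 CPM in untreated libraries. Every triptolide library was above every untreated one, though triptolide replicate 1 alone stood far above the rest. The log2 fold change of 0.62 ± 0.21 (SE) had an adjusted p of 0.0682, and without triptolide replicate 1 it was 0.35, with an adjusted p of 0.129. INTS2 had 26.9 ± 5.48 CPM with triptolide and 26.2 ± 7.39 CPM untreated, and INTS5 had 40.2 ± 7.12 and 35.7 ± 2.42 CPM in the same order (SD, n = 3 each). Neither passed the test.

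**Figure D2:**
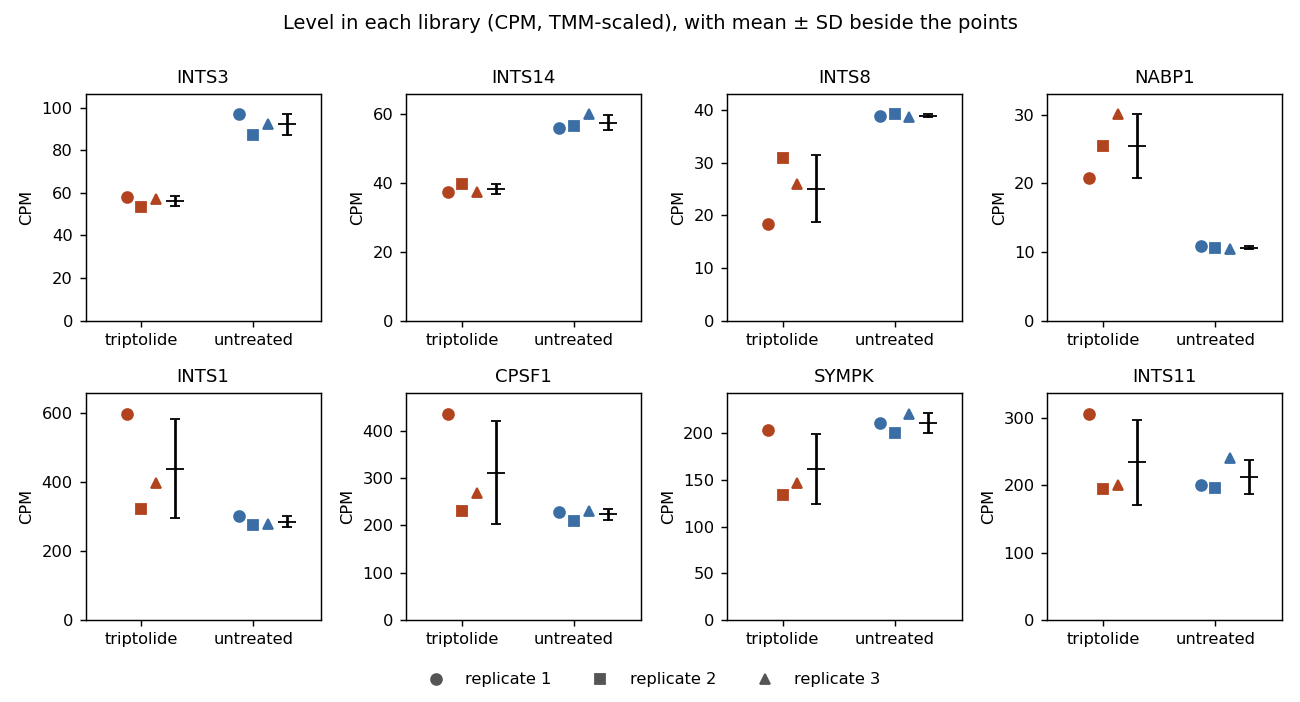
CPM of 8 genes (y axis, from 0) in the triptolide and untreated libraries, 1 marker shape per replicate number, with the mean ± SD of 3 libraries beside the points. INTS3, INTS14 and INTS8 are lower and NABP1 is higher in every triptolide library than in any untreated one, while INTS1, CPSF1 and INTS11 each have their highest point in triptolide replicate 1.

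In the cleavage module, where INTS11 cuts the RNA as a dimer with its inactive relative INTS9 on the scaffold INTS4, 0 of 3 genes passed. INTS11 (ENSG00000127054) had 307, 195 and 201 CPM with triptolide and 200, 196 and 241 CPM untreated. The groups overlapped, with the highest value again in triptolide replicate 1. Its log2 fold change was 0.14, with a 95% interval from -0.29 to 0.57. INTS9 had 43.8 ± 2.98 CPM with triptolide and 41.3 ± 1.09 CPM untreated. INTS4 was lower in each triptolide library, at 19.6 ± 1.65 CPM against 22.0 ± 0.64 CPM, with an adjusted p of 0.516. Its pseudogene copies INTS4P1 and INTS4P2 had under 2 CPM in every library, and how reads were split between the copies is not known.

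The tail and auxiliary subunits all had negative log2 fold changes, from -0.71 to -0.15, and 2 of 5 fell. Of the 10288 genes 6.68% fell, but a group of 5 genes is too small to set against that share. INTS3 had 57.8, 53.5 and 57.1 CPM in triptolide libraries, against 96.9, 87.1 and 92.5 CPM in untreated libraries. The libraries of each group lay close together, far from those of the other group. The log2 fold change was -0.71 ± 0.15 (SE) with an adjusted p of 0.00778. Over all alternative settings run its adjusted p lay between 0.000365 and 0.255, and the only one above 0.05 came from the ribosomal protein gene scaling. INTS3 shares 455 bases of annotated exon (4.35% of its exon length) on the same strand with SLC27A3, a fatty acid transporter gene that fell 4.75-fold, to 2.09 ± 0.22 CPM with triptolide against 9.94 ± 2.14 CPM untreated. The part of shared reads in the fall of INTS3 was not tested.

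INTS14 had 37.5, 39.8 and 37.3 CPM with triptolide, against 55.9, 56.6 and 59.9 CPM untreated. As with INTS3, neither group spread into the other. The log2 fold change was -0.59 ± 0.15 (SE) with an adjusted p of 0.0213. The adjusted p was 0.0999 without triptolide replicate 3, and 0.0694 and 0.0924 without untreated replicates 1 and 2. The call was also lost with ribosomal protein gene scaling (0.41), a minimum mean CPM of 5 (0.0532) and the replicate block (0.0747). INTS14 pairs with INTS13 and INTS10 in the tail. INTS10 had 61.1, 76.3 and 72.0 CPM with triptolide, against 89.1, 95.7 and 104 CPM untreated, with no overlap and an adjusted p of 0.0697.

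INTS13, the most abundant tail subunit per exon length, had 79.8, 129 and 114 CPM with triptolide and 113, 123 and 123 CPM untreated. The groups overlapped, with triptolide replicate 1 the lowest (adjusted p = 0.63). INTS12, a PHD-finger subunit, had 8.74 ± 2.34 CPM with triptolide and 11.8 ± 1.37 CPM untreated (adjusted p = 0.206). Per exon length, INTS14 stood at 0.373, 0.244 and 0.261 of the level of INTS13 in triptolide libraries and at 0.394, 0.367 and 0.388 of it in untreated libraries. The ratio was lowest in triptolide replicates 2 and 3, and triptolide replicate 1 lay within the untreated range.

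Genes that work with Integrator but were not on the list were read from a second list of 8, of which 2 rose and 0 fell. Of all 15202 genes, 10.0% rose and 5.82% fell. NABP1 and NABP2 encode alternative single-stranded DNA-binding subunits that join INTS3 in the SOSS complex. NABP1 (ENSG00000173559) had 20.7, 25.4 and 30.0 CPM with triptolide, against 10.9, 10.6 and 10.5 CPM untreated. Every triptolide library was above every untreated one, and the gene rose 2.39-fold, with a log2 fold change of 1.26 ± 0.19 (SE) and an adjusted p of 0.000996. It stayed past the threshold under every alternative run. NABP2 had 49.4 ± 4.97 CPM with triptolide and 53.2 ± 4.94 CPM untreated (adjusted p = 0.694), and INIP, the small remaining SOSS subunit, which was on neither list, had 22.3 ± 4.20 and 25.8 ± 2.43 CPM in the same order.

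Per exon length, INTS3 stood at 3.68, 2.78 and 2.51 times the level of NABP1 in triptolide libraries, against 11.8, 10.9 and 11.6 times in untreated libraries. The other gene that rose was INTS6L, a paralogue of the subunit gene INTS6, with 21, 24 and 30 counts in triptolide libraries and 4, 11 and 11 counts in untreated libraries. It was 2.44-fold higher (adjusted p = 0.0379). At these low counts the call was lost without 5 of the 6 libraries in turn, all but triptolide replicate 2, with adjusted p-values from 0.0569 to 0.155. DESeq2 did not call INTS6L either. INTS6 itself had 24.2 ± 4.87 CPM with triptolide and 27.1 ± 3.66 CPM untreated (adjusted p = 0.62). The phosphatase genes PPP2R1A and PPP2CA, the subunit gene INTS15 and BRAT1 were not called.

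Among the 6 CPSF genes, which recognise the AAUAAA signal and cut the pre-mRNA, 0 passed the test. CPSF1 (ENSG00000071894), the scaffold, had 437, 230 and 269 CPM with triptolide and 229, 210 and 231 CPM untreated. The groups overlapped by a narrow margin, and triptolide replicate 1 was again by far the highest. The log2 fold change was 0.48, with a 95% interval from 0.004 to 0.96 and an adjusted p of 0.159, and it was 0.18 without triptolide replicate 1. CPSF2, the inactive partner of the endonuclease, had 55.6, 89.1 and 84.2 CPM with triptolide, against 110, 108 and 97.9 CPM untreated (adjusted p = 0.123). WDR33, which contacts the AAUAAA signal, had 71.7, 84.6 and 82.3 CPM with triptolide, against 109, 96.2 and 104 CPM untreated (adjusted p = 0.126). In both genes the groups did not overlap.

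CPSF3 (ENSG00000119203), the endonuclease itself, had 94.4 ± 18.4 CPM with triptolide and 111 ± 7.76 CPM untreated (SD, n = 3 each), and its adjusted p was 0.388. CPSF4, the zinc-finger subunit that also contacts the signal, had 45.9 ± 5.75 and 55.4 ± 7.17 CPM in the same order, and FIP1L1, which binds the poly(A) polymerase, 16.3 ± 1.93 and 18.0 ± 1.18 CPM. WDR33 and FIP1L1 overlap other genes on the opposite strand over 25.6% and 27.7% of their exon length, and FIP1L1 another gene on its own strand over 18.0%.

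Cleavage factor I sets which poly(A) site is used and is built from NUDT21 with CPSF6 or CPSF7, and 0 of these 3 passed. CPSF7 had 61.4, 65.8 and 70.0 CPM with triptolide, against 90.6, 91.5 and 86.0 CPM untreated. The groups did not overlap, with an adjusted p of 0.0657 by edgeR and 0.0471 by DESeq2. CPSF6 had 120, 116 and 123 CPM with triptolide and 138, 134 and 122 CPM untreated, overlapping by a single library of each group. NUDT21 had 80.5 ± 1.23 and 87.5 ± 8.16 CPM in that order, with a log2 fold change of -0.12 and a 95% interval from -0.45 to 0.21. Per exon length the ratio of CPSF6 to CPSF7 was 1.46, 1.31 and 1.31 in triptolide libraries, against 1.14, 1.09 and 1.06 in untreated libraries, and so was higher in each triptolide library.

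The cleavage stimulation factor, which binds downstream of the cut, had 0 of 2 genes called. CSTF1 had 57.0, 61.0 and 52.8 CPM with triptolide and 55.4, 54.9 and 61.1 CPM untreated, with a log2 fold change of -0.01 and a 95% interval from -0.34 to 0.33. CSTF3 had 46.6 ± 13.6 and 41.6 ± 2.36 CPM in the same order. In cleavage factor II, PCF11, which also helps the polymerase to terminate, had 43.9 ± 6.74 CPM with triptolide and 51.0 ± 8.98 CPM untreated (adjusted p = 0.476). CLP1, an RNA kinase, had 15.7, 16.2 and 16.3 CPM with triptolide and 14.8, 14.9 and 16.1 CPM untreated, with overlap (adjusted p = 0.8).

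SYMPK, the scaffold shared by the poly(A) and histone machineries, had 204, 133 and 147 CPM with triptolide, against 212, 201 and 221 CPM untreated. Triptolide replicate 1 lay within the untreated range and the other 2 triptolide libraries lay below it. The adjusted p was 0.168 with all libraries and 0.0184 without triptolide replicate 1. The main poly(A) polymerase gene PAPOLA had 194, 280 and 254 CPM with triptolide and 315, 313 and 262 CPM untreated, with an overlap between triptolide replicate 2 and untreated replicate 3 (adjusted p = 0.289). Its paralogue PAPOLG had 10.3 ± 1.12 and 10.6 ± 0.40 CPM in that order. PABPN1, which coats the new tail, had 27.3 ± 5.13 CPM with triptolide and 27.2 ± 3.0 CPM untreated, and 16.8% of its exon length overlaps the read-through gene BCL2L2-PABPN1 on the same strand.

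For histone mRNA ends 0 of 4 genes passed, with log2 fold changes from -0.23 to -0.17. SLBP (ENSG00000163950), the stem-loop binding protein, had 79.3, 103 and 90.5 CPM with triptolide and 95, 111 and 114 CPM untreated, with an overlap between triptolide replicate 2 and untreated replicate 1 (adjusted p = 0.379). The U7 snRNP proteins LSM10 and LSM11 had 54.1 ± 15.6 and 8.68 ± 0.27 CPM with triptolide and 60.8 ± 11.1 and 10.1 ± 1.09 CPM untreated. CASP8AP2, a histone locus body protein also known as FLASH, had 25.6 ± 5.67 CPM with triptolide and 29 ± 9.54 CPM untreated. Its 95% interval, from -0.73 to 0.38, was the widest of this group. XRN2 had 119, 165 and 154 CPM with triptolide and 170, 168 and 150 CPM untreated. Here too the groups overlapped and triptolide replicate 1 was the lowest (adjusted p = 0.558).

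Of the 32 genes that were not called, 14 had a 95% interval of the fold change wholly inside 1.5-fold in either direction, among them INTS11, INTS9, NUDT21, CSTF1, CLP1, PAPOLG, PABPN1 and XRN2. For the other 18 a change of 1.5-fold lay within the interval. These intervals hold for TMM scaling only, and for shares of a library, not for RNA per cell. With ribosomal protein gene scaling the log2 fold change was 0.32 ± 0.23 (SE) for INTS11, 0.25 ± 0.26 for INTS9 and 0.26 ± 0.27 for CLP1. A change of 1.5-fold is thus not excluded for them under that scaling.

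Levels between genes were compared as mean CPM per kilobase of annotated exons, which counts every annotated exon of a gene and so understates genes with many minor transcripts. They spanned from 1.22 for PAPOLG to 51.4 for CPSF1 in triptolide cells and from 1.25 for PAPOLG to 52.7 for SLBP in untreated cells. INTS1 and CPSF1 stood at 48.5 and 51.4 CPM per kb with triptolide and at 31.5 and 36.8 untreated. The endonuclease gene CPSF3 stood at 25 with triptolide and 29.5 untreated, close to INTS11 with 28.5 and 25.8. Within one complex the levels differed widely: LSM10 stood at 36.1 with triptolide and 40.6 untreated, while its partner LSM11 stood at 1.32 and 1.53.

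**Figure D3:**
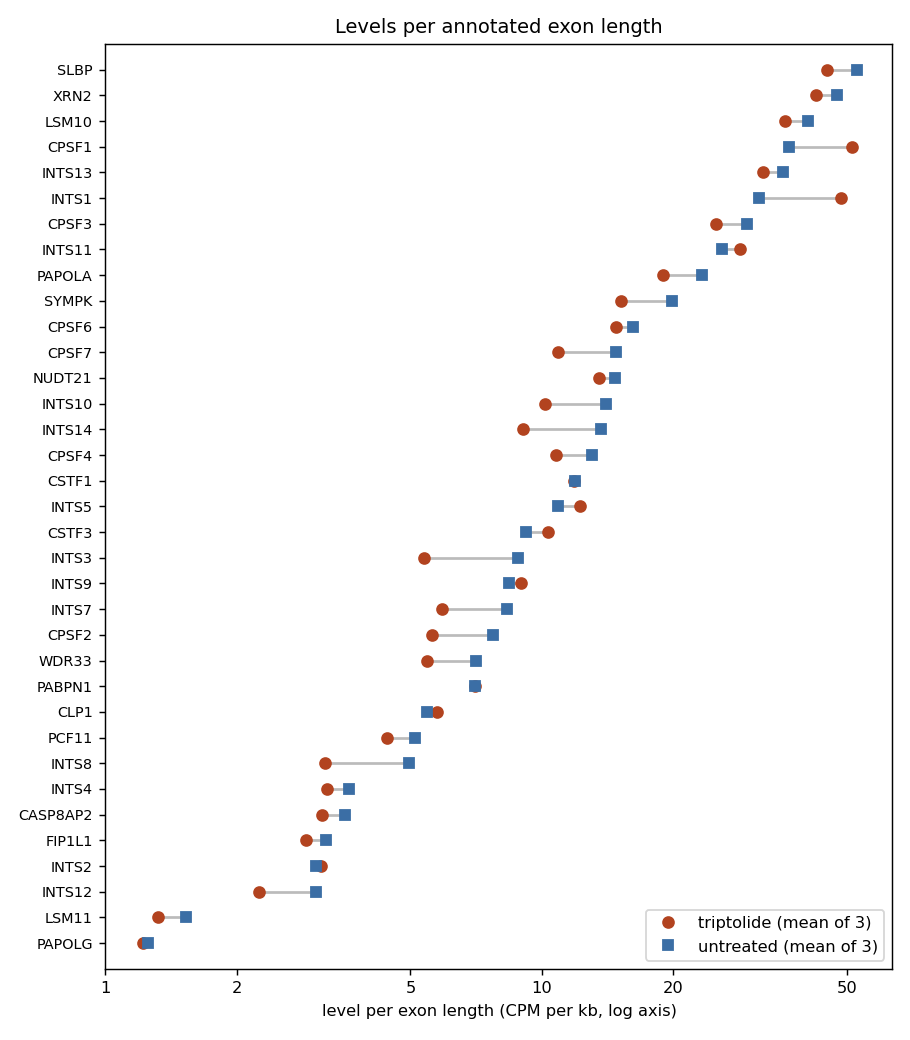
Mean level of the 35 genes per annotated exon length (x axis, CPM per kb, log scale) in triptolide (circles) and untreated (squares) libraries, 3 each, ordered by the untreated level. PAPOLG is the lowest and SLBP the highest in untreated cells, and INTS1 and CPSF1 show the longest steps to the right.

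Triptolide replicate 1 and untreated replicate 3 were most often the extremes in these genes. Triptolide replicate 1 was the lowest of all 6 libraries in 19 of the 35 genes (54.3%). It was the highest in 5, namely INTS1, INTS5, INTS9, INTS11 and CPSF1. Among the 10288 genes it was the lowest in 32.1% and the highest in 26.4%. Untreated replicate 3 was the highest in 10 of the 35 (28.6%) and the lowest in 4, against 27.1% and 20.1% of the 10288. The values of triptolide replicate 1 followed the GC content of the annotated transcripts, which ran from 37.7% in PAPOLG to 64.7% in INTS1. The Spearman correlation between GC content and the library's deviation from its group's mean log2 CPM was 0.69 over the 35 genes in triptolide replicate 1, and -0.54 and -0.66 in triptolide replicates 2 and 3. It was -0.34, -0.72 and 0.63 in untreated replicates 1, 2 and 3. These are descriptions across genes that share libraries, and over 10275 of the 10288 genes, those with a GC value, the 6 correlations had the same signs.

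Of the 12 genes with a GC content above 50%, 7 had a positive log2 fold change, and of the other 23, 2 did. The same split was not taken over all genes. Between GC content and the log2 fold change itself the Spearman correlation was 0.19 over the 35 genes and 0.26 over the 10275. With an offset per library for GC content, 10 of the 35 genes were called lower and 1 higher. The 10 held the 3 that fell without it, with INTS7, INTS10, CPSF2, CPSF4, WDR33, CPSF7 and SYMPK, and the higher one was INTS1. Over all 15202 tested genes the same offset gave 2090 higher and 1914 lower in place of 1527 and 884.

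**Figure D4:**
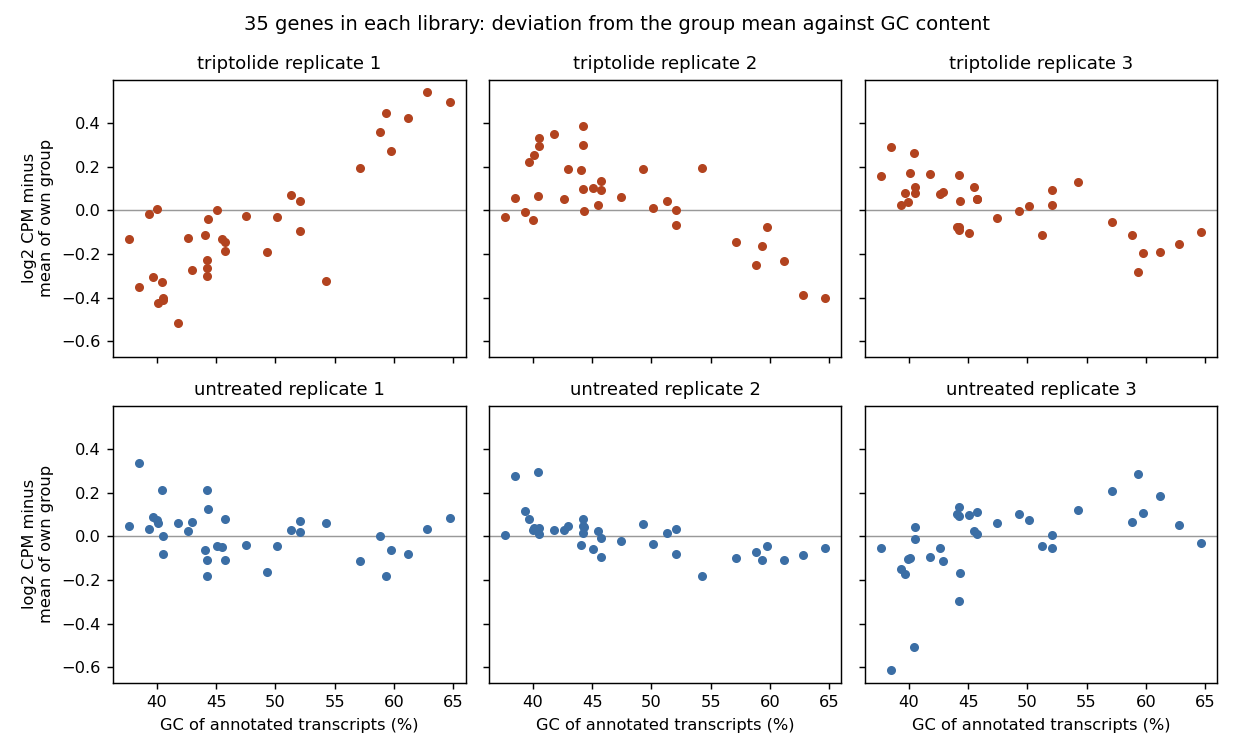
Deviation of each of the 35 genes from the mean log2 CPM of its own group (y axis) against the GC content of its annotated transcripts in percent (x axis), 1 panel per library, triptolide above and untreated below. Points rise with GC content in triptolide replicate 1 and untreated replicate 3 and fall in triptolide replicates 2 and 3 and untreated replicate 2.

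Together with the Integrator partners, 55 other genes of 3′ end processing, histone mRNA metabolism, termination and nuclear RNA handling were read from 5 lists. PAPOLB, with a single count in all, was not tested. Of the 54 tested 2 rose and 1 fell, while 10.0% of all 15202 genes rose and 5.82% fell. At an unadjusted p under 0.05, 6 were lower and 3 higher, against 2094 lower and 2596 higher of the 15202. DESeq2 called 3 lower and 1 higher, against 1123 lower and 1505 higher of the 15202. The gene that fell was WDR82 (ENSG00000164091), which works in termination with the phosphatase adaptor PPP1R10. It had 68.3, 70.3 and 84.4 CPM with triptolide, against 121, 113 and 91.6 CPM untreated, and was 1.46-fold lower without overlap (adjusted p = 0.0478). Its call was lost without any one of 5 libraries, all but untreated replicate 3, with adjusted p-values from 0.0718 to 0.174, and with limma-voom (0.0509). CSTF2, the RNA-binding subunit of the cleavage stimulation factor, had 55.7 ± 1.41 CPM with triptolide and 60.6 ± 0.46 CPM untreated (adjusted p = 0.617). Over all 54 tested genes beside the 35, the median log2 fold change was -0.10 and 50 had an absolute value under 0.5.

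The libraries held 16302961 to 23262713 counts with triptolide and 17566458 to 19600354 untreated, and each of the 35 genes had at least 109 counts in every library. Keratin genes of carcinoma cells were abundant, with KRT8 at 1585 ± 256 CPM with triptolide and 1891 ± 340 CPM untreated, and of 4 tested carcinoma markers 1 fell and 0 rose. The one that fell was KRT18, to 502 ± 56.9 CPM with triptolide against 868 ± 168 CPM untreated (1.73-fold, adjusted p = 0.0123), and KRT19 was lower without overlap (adjusted p = 0.0691). EPCAM and CDH1 were under 0.3 CPM in all libraries and CDKN2A, whose locus is known to be deleted in this line, lay between 2.01 and 3.10 CPM. Of 12 trophoblast markers, 11 were tested and all 11 rose, and their summed level was 533 to 900 CPM with triptolide, highest in replicate 1, against 9.63 to 10.6 CPM untreated. HSD3B1 and ERVFRD-1 of that list had 0 counts in the untreated libraries. Of 5 blood markers, 3 were tested and all 3 rose, summing to 8.08 to 18.2 CPM with triptolide against 0.825 to 2.18 CPM untreated, with PTPRC and CD68 under 0.4 CPM throughout. Of 6 fibroblast markers tested, COL1A1 and THY1 fell and 0 rose, and of 2 endothelial markers tested VWF rose and CDH5 fell. Whether the trophoblast and blood transcripts came from the treated cells or from other RNA in the triptolide libraries was not tested, and nor was the part of these markers in the fold changes given above. In bulk RNA, fewer cells of a type and less RNA per cell cannot be told apart.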

How the data were processed

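Poly(A)-selected RNA was sequenced in 6 libraries. The authors deposited raw counts for each Ensembl gene, all whole numbers. Per the submitters' processing notes, HISAT2 and featureCounts were used. Build, annotation and strand setting were not given in the sources used here. The labels' protocols name 2 sequencer models but do not tie them to libraries, so that batch could not be examined. The design text calls the triptolide libraries controls, and groups here follow the sample labels. Of 35716 IDs, 35639 were matched to symbols. Exon lengths, overlaps and GC content came from GENCODE 29, and 99.2% of tested genes had a GC value.

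Genes were kept by filterByExpr, normalized by TMM, and fitted in R 4.3.3 with edgeR 4.0.16 (glmQLFit and glmQLFTest, group as the only term), with Benjamini-Hochberg adjustment over all 15202 genes. Standard errors and 95% intervals come from the fold change and its F statistic. The fit was tested on simulated data. Alternatives were RLE size factors, library totals, scaling on 81 ribosomal protein genes, no filter, a minimum mean CPM of 5, DESeq2 1.42.0, limma-voom (limma 3.58.1), a replicate block, a GC offset (lowess, span 0.3) and each library left out. GC deviations used log2(CPM + 0.5).

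The genes and lists were chosen with earlier results of these data known. Values per library are given for genes past the threshold, for those without overlap and an adjusted p under 0.2, and for the most abundant gene per exon length of each role. Of other pathway genes, those past the threshold are named. SYMPK was added after its values were seen. Whether libraries of a group come from separate cultures is not labelled, and the p-values therefore reflect the spread among libraries, which may be technical. Every pair of libraries differed beyond sampling noise, with a chi-square over degrees of freedom from 4.96 to 78.4.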

Additional observations from a re-analysis of the deposited data

How the results depend on the processing

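For the 35 genes, the count called lower was 3 and became 0 with ribosomal protein gene scaling, 1 with a minimum mean CPM of 5, 5 with DESeq2 and 10 with the GC offset. Leaving out 1 library gave 1 to 3 lower, with INTS3 among them each time, and 0 to 2 higher. The count called higher was 0 and became 1, INTS1, with library totals, no low-count filter, DESeq2 and the GC offset. Of the other pathway genes, 2 were higher, and 1 was with a minimum mean CPM of 5 and with DESeq2, and 1 to 2 without 1 library. Without triptolide replicate 1 there were 2, but INTS6L was not called, so another gene was counted. The count of other pathway genes called lower was 1. It became 0 with library totals, ribosomal protein gene scaling, a minimum mean CPM of 5 or limma-voom. It was 2 with no low-count filter or the GC offset, 3 with DESeq2, and 0 to 1 without 1 library. Without triptolide replicate 1 or 2 the count was 1, but WDR82 was not called, so another gene was counted. Over all genes, 1527 higher and 884 lower became 583 and 337 with a minimum mean CPM of 5, 133 were lower with ribosomal protein gene scaling, and 1914 were lower with the GC offset. Of those calls 63.3% were higher, and 73.7%, 90.0% and 52.2% were with library totals, ribosomal protein gene scaling and the GC offset. Leaving out 1 library gave 953 to 1580 higher and 407 to 1035 lower. With the replicate block, 2 of the 35 were lower, and INTS14 had an adjusted p of 0.0747. Same-numbered libraries deviated with correlations of 0.03, -0.04 and -0.44, and no library correlated best with its own number. As the deviations also followed GC content, this cannot show whether same-numbered libraries were handled together. No direction of a called gene reversed. The cause of these changes was not tested. Among the called pathway genes INTS6L, with 4 to 30 counts, had the largest standard error of the log2 fold change, 0.38.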
